A study of Mus musculus with 6 samples.

Results

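Cytosolic ribosomal protein genes were followed in small-intestinal epithelial cells with and without the transcription factor c-Maf. Members were the protein-coding genes of the deposited table whose symbol is Rpl or Rps, a number and at most 1 further letter a, l or x. The rule took 75 of 23390 genes, 45 of the large and 30 of the small subunit, and used no measured value. The mutant mice were Vil.Cre Maf.flox (3 libraries), in which Cre under the villin promoter deletes a floxed Maf gene in intestinal epithelium. The controls were Maf.flox (3 libraries), which carry the floxed allele and no Cre. All were C57BL/6 mice, no age is labelled, and RNA came from viable CD45- EpCAM+ cells sorted from the small intestine, so that all epithelial types were pooled. No group had Cre without floxed Maf, so deletion of Maf and presence of Cre cannot be told apart.

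Each cytosolic ribosome joins a small subunit, which reads the mRNA, to a large subunit, which makes the peptide bond and passes the new chain through an exit tunnel. Nearly every one of their proteins is present in a single copy per ribosome, so cells make these proteins in matched amounts. Their mRNAs begin with a C followed by a tract of pyrimidines (C or T in the DNA), the terminal oligopyrimidine motif, through which mTORC1 and the RNA-binding protein Larp1 control their translation. In the intestine, the making of ribosomes is most active in the dividing cells of the crypt. RNA-seq counts mRNA and does not measure its translation.

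The start regions below, of members described in the results, are shown for the place of pyrimidine runs at the annotated start. Each line holds 15 bases before and 15 bases from the annotated start (RefSeq, GRCm38.p6), 5′ to 3′ on the gene's strand, and capitals mark an unbroken run of at least 8 C or T.
Rps6, chr4:86857353-86857382, minus strand: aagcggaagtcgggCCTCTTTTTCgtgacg
Rps27, chr3:90213634-90213663, minus strand: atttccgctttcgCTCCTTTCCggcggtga
Rpl7a, chr2:26910792-26910821, plus strand: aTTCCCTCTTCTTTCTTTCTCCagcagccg
Rps27l, chr9:66946071-66946100, plus strand: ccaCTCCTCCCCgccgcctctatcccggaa
Rps10, chr17:27635230-27635259, minus strand: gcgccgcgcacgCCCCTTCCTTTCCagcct
Rps2, chr17:24720048-24720077, plus strand: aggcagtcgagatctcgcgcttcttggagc
The marked run spans the annotated start in Rps6, Rps27, Rpl7a and Rps10, ends before it in Rps27l and is absent from the Rps2 window. RefSeq gave 68 promoters for 56 of the 75 members. A run of at least 8 C or T on the gene's strand within 25 bases of the start was present in 32 of them (47.1%), against 19.7% of all 32851 promoters. The letters CTTTCC on the same strand and in the same window, which can lie inside such a run, were in 16.2% of member promoters and 2.5% of all. CCGGAAG on either strand was in 13.2% of member promoters and 3.3% of all in that window, and in 35.3% and 8.9% over the whole 300 bases. TATAAA on the gene's strand was in 2.9% of member promoters and 0.9% of all in that window, and in 5.9% and 8.3% over the 300 bases. These are matches of letters.

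Library totals were 17464355 to 24802525 counts. Maf had 16, 1 and 1 counts in the Vil.Cre Maf.flox libraries, against 9398, 5615 and 3893 in the Maf.flox libraries (log2 fold change -9.89, adjusted p = 0.0133, edgeR). The epithelial markers summed to 17059 to 22242 CPM (counts scaled to library size with TMM factors) in Vil.Cre Maf.flox and 17943 to 21009 CPM in Maf.flox. Of 14 leukocyte markers with a row, 10 were under 1 CPM. Their sum was at most 42.9 CPM in Vil.Cre Maf.flox and at most 35.1 CPM in Maf.flox. One library stood apart. Maf.flox replicate 3 differed from Maf.flox replicates 1 and 2 by 132 and 61.5 chi-square units per gene, while the other within-group pairs differed by 36 to 38.7. This mean over genes uses raw counts, so it grows with depth and weighs abundant genes most. Maf.flox replicate 1 was the deepest library, and this measure alone does not settle how far replicate 3 stood apart. The labels do not say that libraries came from separate mice, and the p-values reflect spread between libraries that may be technical. By Xist and Y-linked counts, 2 Vil.Cre Maf.flox libraries and 1 Maf.flox library were male.

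Ribosomal protein mRNAs were abundant in every library. Of the 75 members, 73 passed the filter on low counts, and 70 of these had a mean above 100 CPM. On the FPKM scale, which divides counts by gene length, the 73 had a median of 269.8, with quartiles at 151.9 and 416.1. The highest were Rps15 with 1020 FPKM, Rpl36 with 960.2, Rpl41 with 884.1, Rpl8 with 773.1 and Rps2 with 756.3. At the low end were Rps15a with 55.1 FPKM, Rpl21 with 37.7, Rpl13a with 10.1, Rps10 with 0.704 and Rpl24 with 0.506. FPKM tended to be lower for members with a greater gene length, the length that the authors divided by, which ran from 383 bases for Rpl36 to 6270 for Rps15a. Spearman's correlation with that length was -0.58 for FPKM and 0.22 for CPM over the 73 members, a description of genes that share libraries. The order of members by FPKM thus partly follows that length. Rps15a, low by FPKM, had a mean of 349.0 CPM in Vil.Cre Maf.flox and 343.1 CPM in Maf.flox. The remaining 2 members were not tested. Rpl3l, the paralog of Rpl3 known from striated muscle, had 2 counts in Maf.flox replicate 1 and 0 elsewhere. Rpl39l, the paralog of Rpl39 known from testis, had 2 counts in Vil.Cre Maf.flox replicate 3 and 0 elsewhere. A count of 0 allows up to 3 counts, or 0.121 to 0.172 CPM by library.

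The members took 4.01, 3.92 and 4.04% of all counts in Vil.Cre Maf.flox replicates 1, 2 and 3, against 3.38, 3.42 and 4.48% in Maf.flox replicates 1, 2 and 3. The means were 3.99 ± 0.0624% in Vil.Cre Maf.flox and 3.76 ± 0.624% in Maf.flox (SD, n = 3 each). By this share the Vil.Cre Maf.flox libraries lay close together, above Maf.flox replicates 1 and 2 and below Maf.flox replicate 3, so the groups overlapped. Wilson 95% intervals for these shares were at most 0.018 percentage points wide and cover counting error only. Without Maf.flox replicate 3, the Maf.flox mean was 3.40%. In CPM the members summed to 40793, 40154 and 37422 in Vil.Cre Maf.flox (SD 1790) and 35215, 35322 and 43355 in Maf.flox (SD 4669). With TMM scaling the Vil.Cre Maf.flox libraries were thus less close together, though still between the same Maf.flox libraries. In bulk RNA, fewer cells with a high content and less RNA per cell cannot be told apart.

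**Figure D1:**
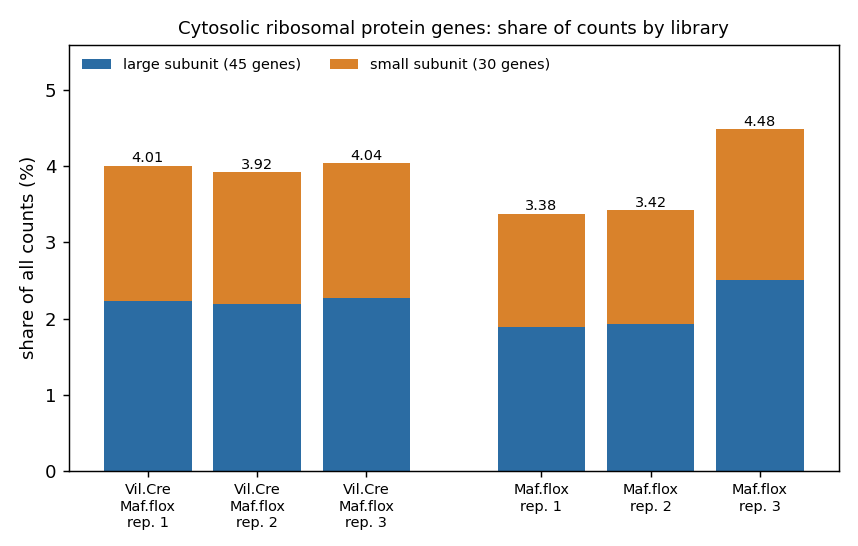
Share of all counts taken by cytosolic ribosomal protein genes in each library (y axis, %), with large subunit genes in blue and small subunit genes in orange. Each bar is 1 library. The 3 Vil.Cre Maf.flox libraries are at 3.92 to 4.04%, between Maf.flox replicates 1 and 2 at 3.38 and 3.42% and Maf.flox replicate 3 at 4.48%.

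Both subunits followed this order. Large subunit members took 2.23, 2.19 and 2.27% of counts in Vil.Cre Maf.flox and 1.89, 1.93 and 2.51% in Maf.flox. Small subunit members took 1.78, 1.73 and 1.78% in Vil.Cre Maf.flox and 1.48, 1.49 and 1.98% in Maf.flox. The ratio of large to small stayed in a narrow range. It was 1.25, 1.27 and 1.28 in Vil.Cre Maf.flox and 1.28, 1.30 and 1.27 in Maf.flox, and the groups overlapped.

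Cell type markers also differed between the libraries. Markers of mature enterocytes, the absorptive cells of the villus, summed to 5996, 8077 and 4619 CPM in Vil.Cre Maf.flox and 21618, 20238 and 9576 CPM in Maf.flox. Paneth cell markers summed to 7808, 7721 and 11182 CPM in Vil.Cre Maf.flox and 5650, 18790 and 36074 CPM in Maf.flox. The highest Paneth sum, the highest crypt stem sum and the lowest enterocyte sum of the Maf.flox group were thus all in replicate 3. Crypt stem markers summed to 2165, 2174 and 2902 CPM in Vil.Cre Maf.flox and 2438, 2776 and 3397 CPM in Maf.flox. Markers of cycling cells summed to 1049, 859.3 and 1298 CPM in Vil.Cre Maf.flox and 817.2, 1046 and 1281 CPM in Maf.flox, and these groups overlapped. Goblet cell markers summed to 21072, 28876 and 15176 CPM in Vil.Cre Maf.flox and 34018, 28397 and 15261 CPM in Maf.flox, with the lowest Maf.flox value also in replicate 3. The part of cell makeup in the members' values was not tested.

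Gene by gene, no member passed the test. With edgeR's quasi-likelihood test and Benjamini-Hochberg adjustment over 13740 genes, 0 of 73 members had an adjusted p under 0.05, where 0.546% of all genes did (0.189% higher and 0.357% lower). At an unadjusted p under 0.05 the count was also 0 of 73, where 16.4% of all genes passed. DESeq2 called 0 members as well, where it called 5.08% of genes, and Rps2 alone had an unadjusted p under 0.05, where 9.82% of genes did. The smallest adjusted p of a member by edgeR was 0.376, for Rps21. The median log2 fold change of the 73 was 0.05, with quartiles at 0.01 and 0.08, while all genes tested had a median of -0.01 and quartiles at -0.20 and 0.15. Large subunit members had a median of 0.04 and small subunit members one of 0.06. Of the 73 members, 58 were above 0, where 48.4% of all genes were. An absolute log2 fold change under 0.15 was found for 62 of the 73 members and for 44.7% of all genes. The median standard error (SE) was 0.130 for members and 0.160 for all genes, so single differences of the size of the members' median lay well within their error.

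**Figure D2:**
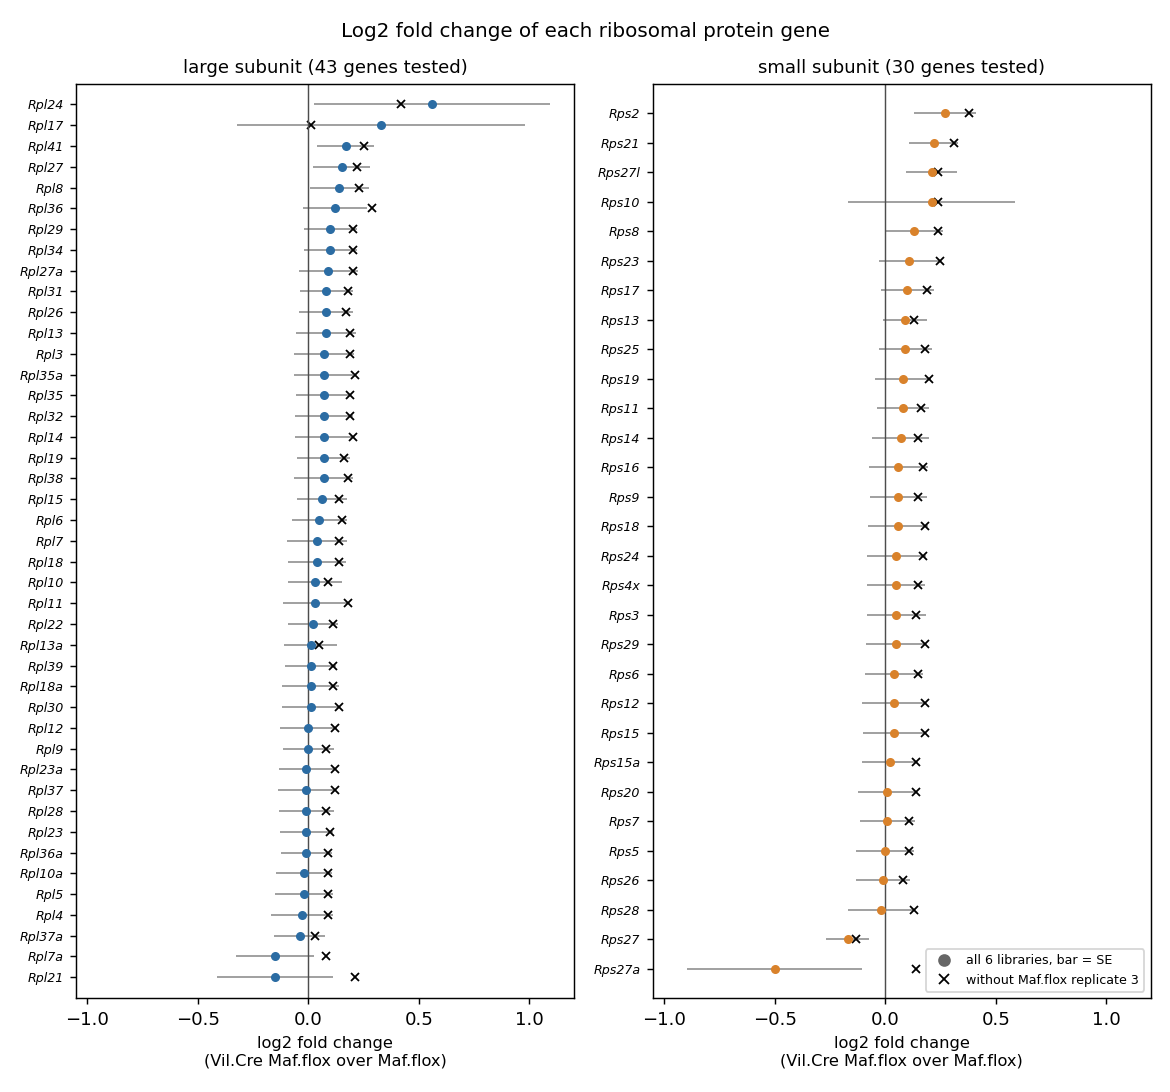
Log2 fold change of each of the 73 tested members (x axis, Vil.Cre Maf.flox over Maf.flox), ordered within the large subunit (left) and the small subunit (right). Filled points with bars are estimates from 6 libraries with their SE, and crosses are estimates without Maf.flox replicate 3. Most points lie between -0.15 and 0.15, and without that library every cross but that of Rps27 is above 0.

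The library that stood apart moved these values. Maf.flox replicate 3 was the highest of all 6 libraries for 58 of the 73 members and above both other Maf.flox libraries for 70. All 3 Vil.Cre Maf.flox libraries were above Maf.flox replicates 1 and 2 for 51 members, and for 42 of these they were also below Maf.flox replicate 3. The shares of all genes with such library orders were not computed, so these counts do not set members apart from other genes. The median deviation of a member from its own mean was 0.09, 0.05 and -0.05 log2 CPM in Vil.Cre Maf.flox and -0.13, -0.11 and 0.17 log2 CPM in Maf.flox. Maf.flox replicate 1 was lowest for 37 members and Maf.flox replicate 2 for 30. Members thus varied together across libraries of a single genotype by more than their median differed between genotypes. Leaving out Maf.flox replicate 3, high for most members, raises their values by construction, and members that vary together are not separate observations. Without Maf.flox replicate 3, the median log2 fold change of members was 0.15 and 72 of 73 were above 0, where 50.9% of the same 13740 genes were. In that fit Rpl36, Rps2 and Rps21 had an unadjusted p under 0.05, where 21.3% of them did, and 0 members had an adjusted p under 0.05, where 4.98% did.

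**Figure D3:**
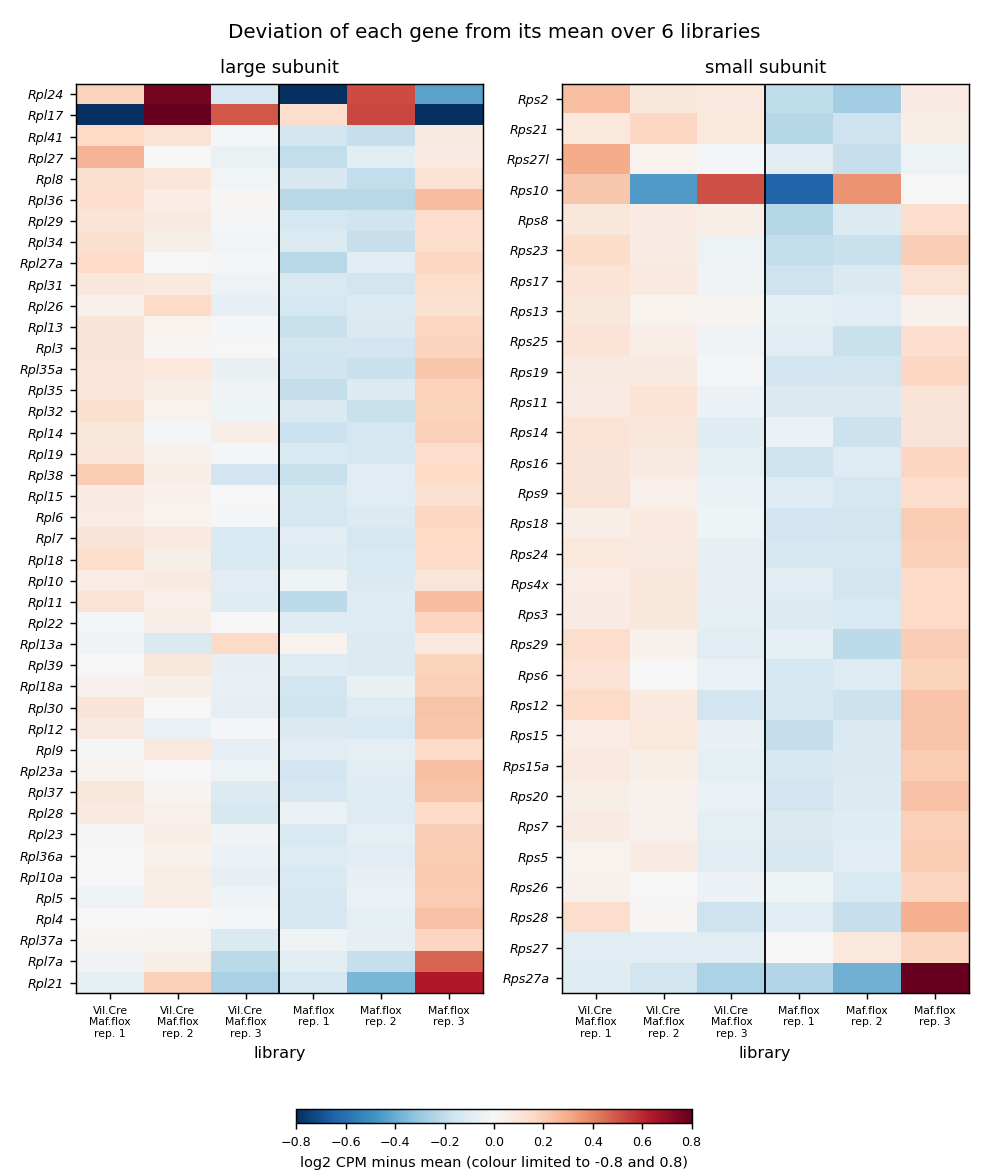
Deviation of each tested member's log2 CPM from its mean over 6 libraries, as colour (red above, blue below, limited to -0.8 and 0.8), with a row for each gene and a column for each library, Vil.Cre Maf.flox left of the line. Maf.flox replicate 3 is red and Maf.flox replicates 1 and 2 are pale blue in most rows. In Rps27a, Maf.flox replicate 3 is beyond the red limit and every other column is blue. Rows such as Rpl17, Rpl24, Rps10, Rps27, Rps27l and Rpl13a depart from the common pattern.

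Among proteins of the large subunit, the 3 at the catalytic centre had log2 fold changes of 0.03 to 0.14, and none passed the test. Rpl8, which is needed for peptide bond formation, had 1147, 1123 and 1034 CPM in Vil.Cre Maf.flox and 956.9, 915.8 and 1133 CPM in Maf.flox. The log2 fold change came to 0.14 (SE 0.133, adjusted p = 0.669, edgeR). Maf.flox replicate 3 was above Vil.Cre Maf.flox replicates 2 and 3, and the groups overlapped. Rpl3, which reaches towards the catalytic site, had 1063, 998.7 and 989.2 CPM in Vil.Cre Maf.flox and 893.6, 888.5 and 1119 CPM in Maf.flox (log2 fold change 0.07, SE 0.136). Rpl10, which joins the large subunit late in its assembly, had a log2 fold change of 0.03 (SE 0.122).

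The exit tunnel and its rim are lined by Rpl4, Rpl17, Rpl23a, Rpl26, Rpl31, Rpl35 and Rpl39. Their log2 fold changes had a median of 0.07 and ran from -0.03 for Rpl4 to 0.33 for Rpl17, whose counts are taken up below. Rpl4 had 1377, 1378 and 1363 CPM in Vil.Cre Maf.flox and 1258, 1314 and 1621 CPM in Maf.flox (SE 0.140). All 3 Vil.Cre Maf.flox libraries lay between the Maf.flox libraries.

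Rpl5 and Rpl11 bind the smallest rRNA of the large subunit and, when ribosome assembly is disturbed, the p53 ligase Mdm2. Rpl5 had 766.5, 822.3 and 767.9 CPM in Vil.Cre Maf.flox and 717.7, 758.2 and 907.3 CPM in Maf.flox. Rpl11 had 526.8, 501.2 and 455.8 CPM in Vil.Cre Maf.flox and 420.8, 455.2 and 576.6 CPM in Maf.flox. Their log2 fold changes were -0.02 (SE 0.130) and 0.03 (SE 0.143), and both had their highest value in Maf.flox replicate 3. Rpl41, the shortest of the ribosomal proteins, had 1150, 1114 and 1021 CPM in Vil.Cre Maf.flox and 930.9, 905.3 and 1081 CPM in Maf.flox (log2 fold change 0.17, SE 0.129, adjusted p = 0.566, edgeR). The log2 fold change of Rpl27 was 0.15 (SE 0.130), that of Rpl36 0.12 (SE 0.146) and that of Rpl37a -0.04 (SE 0.115). Rpl10a, a protein of the stalk that helps release spent tRNA, had a log2 fold change of -0.02 (SE 0.128).

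In the small subunit, Rps2 and Rps3 line the channel through which mRNA enters. Rps2 had 1622, 1466 and 1453 CPM in Vil.Cre Maf.flox and 1195, 1134 and 1440 CPM in Maf.flox. Every Vil.Cre Maf.flox library was above every Maf.flox library, though only just above Maf.flox replicate 3. The log2 fold change came to 0.27 (SE 0.141, adjusted p = 0.389, edgeR) and 0.38 without that library. Rps3 had 1187, 1204 and 1071 CPM in Vil.Cre Maf.flox and 1048, 1042 and 1259 CPM in Maf.flox (log2 fold change 0.05, SE 0.134), with overlapping groups.

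At the decoding centre, Rps23 was at a log2 fold change of 0.11 (SE 0.140) and Rps15 at 0.04 (SE 0.140). Rps14, Rps26 and Rps28 sit where mRNA leaves, and their log2 fold changes were 0.07, -0.01 and -0.02. Rps19, a protein of the head that is mutated in human Diamond-Blackfan anaemia, had 601.1, 601.2 and 568.8 CPM in Vil.Cre Maf.flox and 513.7, 515.3 and 641.0 CPM in Maf.flox (log2 fold change 0.08, SE 0.127). Rps6, the substrate of the S6 kinases below mTORC1, had 824.8, 763.8 and 735.9 CPM in Vil.Cre Maf.flox and 692.1, 709.6 and 860.8 CPM in Maf.flox (log2 fold change 0.04, SE 0.131). The order of the libraries was the same for both: Maf.flox replicates 1 and 2 lowest, Maf.flox replicate 3 highest. Rps4x, the X-linked form of Rps4, was at 0.05 on the log2 fold change scale (SE 0.130). Rps15a was at 0.02 (SE 0.126) on that scale.

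The groups did not overlap for 4 members, 3 higher and 1 lower in Vil.Cre Maf.flox, where 20.6% of all genes did not overlap (10.1% higher and 10.5% lower). All 4 were small subunit genes. Beside Rps2, these were Rps21, Rps27l and Rps27. Rps21 had 286.2, 302.6 and 286.7 CPM in Vil.Cre Maf.flox and 230.7, 241.2 and 280.6 CPM in Maf.flox (log2 fold change 0.22, SE 0.111, adjusted p = 0.376, edgeR). Rps27 and Rps27l are paralogs, and Rps27l is known as a p53 target in human cells. Rps27l had 177.3, 146.9 and 143.0 CPM in Vil.Cre Maf.flox and 136.1, 126.9 and 140.5 CPM in Maf.flox (log2 fold change 0.21, SE 0.114, adjusted p = 0.401, edgeR). Rps27 had 270.7, 270.8 and 269.0 CPM in Vil.Cre Maf.flox and 287.1, 303.3 and 322.2 CPM in Maf.flox (log2 fold change -0.17, SE 0.0989, adjusted p = 0.436, edgeR). The signs of the pair were opposite, none of these 4 genes passed the test, and a difference between the paralogs was not tested. Without Maf.flox replicate 3, Rps27 was at -0.13, the only member below 0.

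A few members departed from the common pattern, and for most of them the spread between libraries was wide. The within-group coefficient of variation was above 30% for 4 members, Rpl17 (54.9%), Rpl24 (52.4%), Rps27a (44.3%) and Rps10 (34.3%), while the median member had 9.64% and the median gene 13.8%. Rpl17, a protein of the exit tunnel, had 78.8, 365.7 and 256.0 CPM in Vil.Cre Maf.flox and 200.1, 263.1 and 92.3 CPM in Maf.flox. A processed pseudogene on chromosome 7, Rpl17-ps10, had 353.1, 129.4 and 154.3 CPM in Vil.Cre Maf.flox and 198.6, 148.0 and 427.4 CPM in Maf.flox. The 2 rows mirrored each other: Rpl17 was low in Vil.Cre Maf.flox replicate 1 and Maf.flox replicate 3, where the pseudogene was high. Rpl17 made up 18.3% (Wilson 95% interval 17.4 to 19.1), 73.9% (72.9 to 74.8) and 62.4% (61.4 to 63.3) of their joint counts in Vil.Cre Maf.flox. In Maf.flox it made up 50.2% (49.2 to 51.2), 64.0% (62.9 to 65.1) and 17.8% (17.0 to 18.5). The joint level varied far less, with 431.9, 495.1 and 410.3 CPM in Vil.Cre Maf.flox and 398.7, 411.1 and 519.7 CPM in Maf.flox. The log2 fold change of the Rpl17 row was 0.33 (SE 0.651). With all near copies added it was -0.04 (SE 0.130).

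Rps27a encodes a ribosomal protein fused to ubiquitin. It had 173.6, 168.1 and 155.9 CPM in Vil.Cre Maf.flox and 158.1, 142.4 and 403.8 CPM in Maf.flox. Maf.flox replicate 3 was far above the other 5 libraries, and the log2 fold change of -0.50 (SE 0.397) was 0.14 without it. Its near copies were low, such as Rps27a-ps2 with 9.67 to 10.1 CPM in Vil.Cre Maf.flox and 4.71 to 5.93 CPM in Maf.flox, and adding them gave -0.41. Rpl7a had 219.2, 231.5 and 192.6 CPM in Vil.Cre Maf.flox and 209.6, 196.6 and 308.9 CPM in Maf.flox. Rpl21 had 118.8, 142.2 and 104.4 CPM in Vil.Cre Maf.flox and 113.3, 97.0 and 195.0 CPM in Maf.flox. Both were at -0.15 (SE 0.176 and 0.261), again with their peak in Maf.flox replicate 3, and at 0.08 and 0.21 without it.

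**Figure D4:**
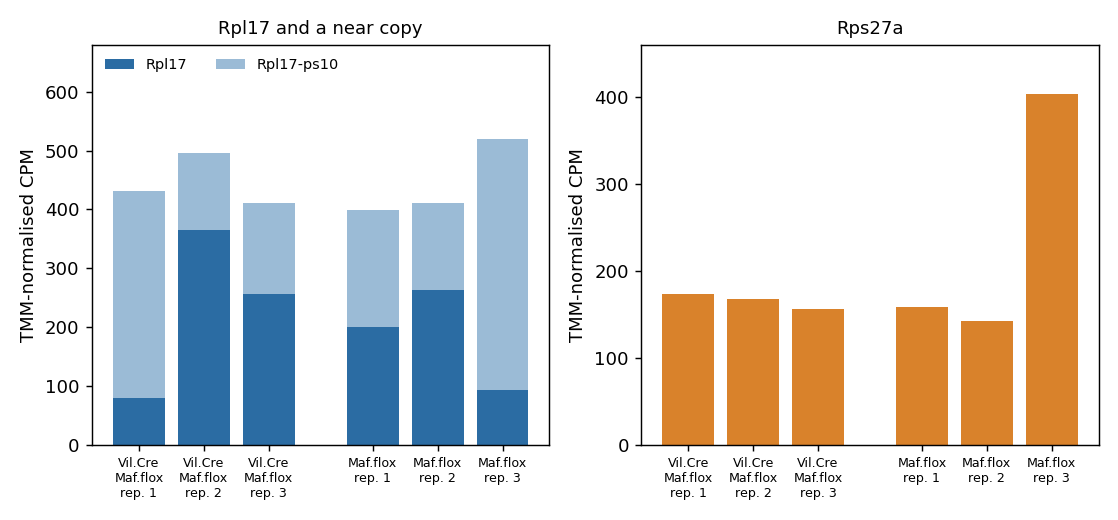
Left, TMM-normalised CPM of Rpl17 (dark) and its pseudogene Rpl17-ps10 (light), stacked, in each library; right, TMM-normalised CPM of Rps27a. Rpl17 ranges from 78.8 to 365.7 CPM while the stacked sum ranges from 398.7 to 519.7 CPM, and Rps27a is at 403.8 CPM in Maf.flox replicate 3 and at 142.4 to 173.6 CPM in the other 5 libraries.

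Rpl24, Rps10 and Rpl13a were far below the other members. Rpl24, which bridges the subunits, had 0.558, 0.881 and 0.428 CPM in Vil.Cre Maf.flox and 0.210, 0.729 and 0.332 CPM in Maf.flox (log2 fold change 0.56, SE 0.534). Rps10, a protein of the small subunit's head, had 1.83, 1.12 and 2.27 CPM in Vil.Cre Maf.flox and 0.967, 2.03 and 1.57 CPM in Maf.flox (log2 fold change 0.21, SE 0.378). Rpl13a, which in human cells also takes part in translational silencing after interferon, had 20.8, 19.7 and 23.7 CPM in Vil.Cre Maf.flox and 21.7, 19.7 and 22.5 CPM in Maf.flox (log2 fold change 0.01, SE 0.120). In GENCODE M21 (GRCm38), these were the 3 members with at least 20% of their exon bases under another gene of the same strand. That share was 47.0% for Rpl24, under Gm28037, 20.6% for Rps10, under RPS10-NUDT3, and 35.4% for Rpl13a, under Gm45713. Those overlapping genes were not analysed here, and how the authors' counting treated reads in the overlaps is not given in the sources used here.

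Rps10 shows how close a copy can be. Its coding sequence (gene at chr17:27630418-27636669, minus strand) and the processed pseudogene Rps10-ps2 (chr16:20822145-20822640, minus strand) differ at 5 of 495 bases (99.0% identity, GENCODE M21). The stretch from coding base 373 to 432 is shown because it holds the first 2 differences, in capitals, T393C and T408C, counted from 1 at the first coding base with the Rps10 base first.
Rps10: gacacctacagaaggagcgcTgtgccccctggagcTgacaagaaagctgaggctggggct
Rps10-ps2: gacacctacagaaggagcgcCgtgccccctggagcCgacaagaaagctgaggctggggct
The pseudogene row had 170.9, 171.6 and 150.5 CPM in Vil.Cre Maf.flox and 149.2, 153.3 and 181.5 CPM in Maf.flox, far above the Rps10 row in every library. It followed the order of the other members, with Maf.flox replicate 3 highest and Maf.flox replicates 1 and 2 among the lowest.

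Such copies are common in this family. Of the 75 members, 63 had at least 1 near copy, a gene that holds at least 50% of the 31-base words of the member's coding sequence, and 31 had every such word in another gene. The table held 257 pseudogene rows that were near copies of members. Members and these pseudogene rows together took 4.34, 4.22 and 4.37% of counts in Vil.Cre Maf.flox and 3.64, 3.69 and 4.85% in Maf.flox, in the order seen for the members alone. Near copies of other types, such as the protein-coding Rps27rt and Rpl10-ps3 and the noncoding Gm10076, were not added. How the authors' counting shared reads between a member and its copies is not given in the sources used here, so the level of a single member is uncertain to that extent.

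Ribosomal proteins outside the name pattern gave no call either. Of 9 tested (among them the stalk proteins Rplp0, Rplp1 and Rplp2 and the laminin receptor homologue Rpsa), 7 were above 0, the median log2 fold change was 0.12, and 0 had an unadjusted p under 0.05. On the same scale Rpl7l1 was at 0.18 and Rpl22l1 at 0.13. The other genes of terminal oligopyrimidine mRNAs, such as elongation factors, had a median of 0.01 with 10 of 16 above 0. Among them Eif4b, a cofactor of the initiation helicase, was at -0.24, and Eef1d and Eef1g, subunits of the elongation factor that reloads GTP, were at 0.18 and 0.16. None of the 16 was called, and 0 had an unadjusted p under 0.05.

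Mitochondrial ribosomal proteins, which build the separate ribosome that translates mitochondrial mRNAs, had larger values. Of 77 tested, 74 were above 0 and the median log2 fold change was 0.22, against 0.05 for the cytosolic members and -0.01 for all genes. None was called at an adjusted p under 0.05 by edgeR, or by limma-voom, while DESeq2 called 4 as higher, Mrpl51, Mrpl54 and Mrpl55 among them, where it called 5.08% of all genes. At an unadjusted p under 0.05, 32 were higher and 0 lower in Vil.Cre Maf.flox, where 7.11% of all genes were higher. The groups did not overlap, with Vil.Cre Maf.flox higher, for 37 of the 77, where 10.1% of all genes did not. Mrpl55 had 28.0, 27.7 and 23.7 CPM in Vil.Cre Maf.flox and 17.4, 18.1 and 21.0 CPM in Maf.flox (log2 fold change 0.49, SE 0.125, adjusted p = 0.112, edgeR). Mrpl54 and Mrpl51 were at 0.40 (adjusted p = 0.118, edgeR) and 0.39 (adjusted p = 0.116, edgeR). These genes took 0.366, 0.325 and 0.367% of counts in Vil.Cre Maf.flox and 0.273, 0.277 and 0.333% in Maf.flox. Here too Maf.flox replicate 3 was the highest Maf.flox library, and without it the median was 0.30 and 2 of the 77 were called, Mrpl55 and Mrps25, where 4.98% of all genes were. The summed enterocyte markers, given above, did not overlap between the groups. By edgeR with all 6 libraries 1 of the 9 was called, where 0.546% of all genes were. The markers' part in these values was not tested. No test compared the 2 families of ribosomal proteins.

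**Figure D5:**
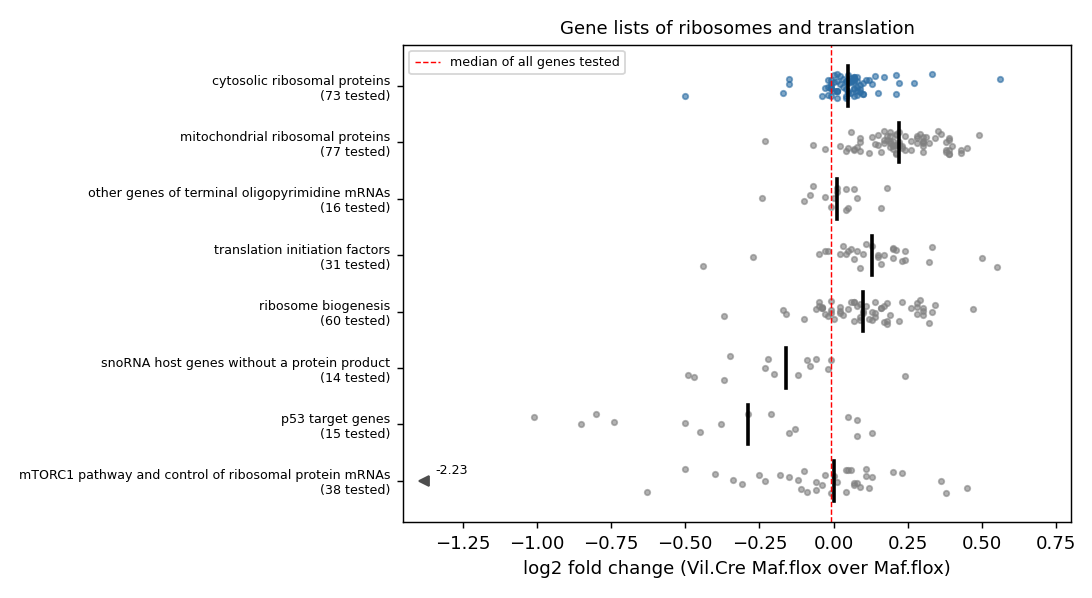
Log2 fold change (x axis, Vil.Cre Maf.flox over Maf.flox) of each tested gene in 8 lists, with a point for each gene, a black bar at the list's median and a dashed line at the median of all genes tested (-0.01). Cytosolic ribosomal proteins (blue) have a median of 0.05 and mitochondrial ones of 0.22; an arrowhead marks Castor2 at -2.23, outside the axis.

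The factors that assemble the cytosolic ribosome and start translation gave no call by edgeR. Of 60 ribosome biogenesis genes tested, 45 were above 0 with a median log2 fold change of 0.10. At an unadjusted p under 0.05, 3 were higher and 1 lower in Vil.Cre Maf.flox, where 7.11% of all genes were higher and 9.25% lower, and DESeq2 called 0. Sbds, which helps free the new large subunit of Eif6, was at -0.37 (SE 0.109). Without Maf.flox replicate 3 it was at -0.46 and the only gene of the 60 called, where 4.98% of all genes were. Emg1, an rRNA methyltransferase, was at 0.28 (SE 0.102) and Noc4l, a nucleolar assembly factor, at 0.47 (SE 0.185). Of 31 initiation factors, 26 were above 0 with a median of 0.13. At an unadjusted p under 0.05, 5 were higher and 2 lower, against the same shares of all genes. Eif2s2, the beta subunit of the factor that delivers the initiator tRNA, had 231.2, 214.3 and 183.2 CPM in Vil.Cre Maf.flox and 146.2, 130.6 and 153.3 CPM in Maf.flox. The log2 fold change came to 0.55 (SE 0.120, adjusted p = 0.0851, edgeR), without overlap of the groups. DESeq2 called only this 1 of the 31, where it called 5.08% of all genes. Without Maf.flox replicate 3 edgeR also called it alone (0.60), where 4.98% of all genes were called. With a replicate block 1 of the 31, Eif2s2, was called, where 132 of 13740 genes were called as higher. Eif4a2, an RNA helicase, was at -0.44 (SE 0.128), and Eif1, which guards the choice of start codon, at -0.27 (SE 0.0986). The list of chaperones and assembly partners of ribosomal proteins had 7 of 8 above 0 and a median of 0.08, with Rrp7a at 0.22, Bccip at 0.21 and Kri1 at 0.19. Of these 8, 1 had an unadjusted p under 0.05 (Rrp7a, higher), and 0 were called by DESeq2.

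The 38 tested genes of the mTORC1 pathway and of the control of ribosomal protein mRNAs were evenly split, with 19 above 0, and at an unadjusted p under 0.05 0 were higher and 2 lower, where 9.25% of all genes were lower. None was called by edgeR. Castor2, whose relative Castor1 senses arginine, had 8.06, 11.6 and 5.90 CPM in Vil.Cre Maf.flox and 53.8, 46.8 and 18.8 CPM in Maf.flox (log2 fold change -2.23, SE 0.441, adjusted p = 0.0875, edgeR). The groups did not overlap, and Maf.flox replicate 3 was the lowest Maf.flox library. Sesn2, a leucine sensor, was at -0.50 (SE 0.156) and Flcn, which acts on the Rag GTPases, at -0.34 (SE 0.154). Without Maf.flox replicate 3, 2 genes of this list were called as lower by edgeR, Castor2 (log2 fold change -2.57) and Max, where 4.98% of all genes were called in either direction. Castor2 was also called by DESeq2, which called 5.08% of all genes, and with a replicate block, which called 308 of 13740 genes as lower.

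RNAs that host snoRNAs, the guides of rRNA modification, had 1 of 14 above 0 and a median of -0.16, with Zfas1 at -0.47 (SE 0.177), Epb41l4aos at -0.37 (SE 0.174) and Gas5 at -0.22 (SE 0.110). None was called by edgeR or DESeq2, 1 had an unadjusted p under 0.05 (lower, where 9.25% of all genes were), and without Maf.flox replicate 3 the median was -0.04 with 6 of 14 above 0. Of 15 targets of p53, which free Rpl5 and Rpl11 can raise, 4 were above 0 and the median was -0.29. At an unadjusted p under 0.05, 6 were lower, where 9.25% of all genes were, and none was called by edgeR. Sesn2 is among these 6 and is counted in the mTORC1 list as well. Pmaip1, a killer of the Bcl2 family, had 24.0, 39.1 and 32.0 CPM in Vil.Cre Maf.flox and 62.9, 75.4 and 53.2 CPM in Maf.flox (log2 fold change -1.01, SE 0.193, adjusted p = 0.0708, edgeR). Btg2, which restrains division, was at -0.80 (SE 0.198) and Mdm2 at -0.38 (SE 0.103). Without Maf.flox replicate 3, 3 of the 15 were called as lower, Pmaip1, Btg2 and Mdm2, where 4.98% of all genes were called in either direction. DESeq2 also called 3 as lower, Pmaip1 and Btg2 among them, where it called 5.08% of all genes. With a replicate block edgeR called 2, Pmaip1 and Btg2, where it called 308 of 13740 genes as lower. The part of cell makeup in the values of these lists was not tested.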

How the data were processed

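RNA was measured in 6 libraries of sorted epithelial cells. Per the labels' protocols, poly-T beads selected mRNA from total RNA and random hexamers primed it; strand is unclear. The submitters' processing notes name HISAT2 2.0.5, DESeq2, featureCounts 1.5.0-p3 and the build GRCm38 (mm10). Per the file headers, the authors deposited raw counts per gene and FPKM. Each deposited FPKM was its count over gene length and 1 library size. FPKM served only to order members by level, an order that partly follows gene length.

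Counts were tested with edgeR 4.0.16 (R 4.3.3): filterByExpr with a least count of 10, TMM scaling, a robust quasi-likelihood F test on genotype and Benjamini-Hochberg adjustment over 13740 genes, called at 0.05. CPM uses TMM library sizes. The tests were checked on simulated counts, where a larger share of the calls was false with DESeq2 (17.1%) than with edgeR (5.03%). Those counts were drawn from edgeR's own estimates of spread, with no library that stood apart. They therefore cannot rank the tools for these data. Members, lists and alternatives (other scalings and filters, DESeq2 1.42.0, limma-voom 3.58.1, a replicate block, a sex term, each library left out) were chosen with earlier results of these data known. Adding near copies, for pseudogene rows only, was chosen after seeing the data.

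The text names members with the 8 highest and 8 lowest fold changes, non-overlapping groups or the 5 highest and 5 lowest FPKM, a few with known roles, and of each list the 3 genes with the smallest p. Other members were named for their place in the ribosome. A gene that this rule takes is not reported here. Near copies were found by shared 31-base words with GENCODE M21 transcripts. With 17464355 to 24802525 counts per library, intervals and limits cover counting error only.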

Additional observations from a re-analysis of the deposited data

How the results depend on the processing

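The count of members called was 0 under every alternative run, also at an adjusted p under 0.1. The members' median log2 fold change of 0.05 ranged from 0.01 to 0.15 over all alternatives. The count of genes called over all tested was 75 and depended on the settings. It was 118 with total counts alone, 365 without a filter, 742 with DESeq2, 30 with limma-voom, 38 with a sex term, 2 at an adjusted p under 0.01, 372 at 0.1, and 8 to 701 with 1 library left out. The cause was not tested. Same-numbered libraries of the 2 groups correlated at 0.0917, -0.0256 and 0.269, which did not show pairing. With a replicate block 440 genes were called and 0 members.

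Signs near 0 turned for some genes. With upper quartile scaling Rpl10a and Rps28 were at 0.00 and Rpl5 at 0.01. With total counts alone Rpl4, Rpl10a and Rps28 were at 0.01 and Rpl5 at 0.02. Without a filter Rpl10a, Rps28 and Rpl5 were at 0.00. With a sex term Rpl4 and Rpl5 were at 0.01 and Rpl10a at 0.00. With near copies added Rps28 was at 0.00, Rpl5 at 0.02 and Rpl17 at -0.04. With 1 library left out, values ranged from -0.75 to 0.14 for Rps27a, -0.27 to 0.08 for Rpl7a, -0.33 to 0.21 for Rpl21, -0.08 to 0.03 for Rpl37a, -0.09 to 0.09 for Rpl4, -0.08 to 0.09 for Rpl10a, -0.10 to 0.13 for Rps28, -0.07 to 0.09 for Rpl5, -0.03 to 0.48 for Rps10, -0.13 to 0.75 for Rpl17, -0.07 to 0.08 for Rpl13a, -0.02 to 0.14 for Rps15a, -0.03 to 0.18 for Rps15, -0.05 to 0.18 for Rpl11, -0.01 to 0.15 for Rps6 and -0.04 to 0.38 for Kri1.

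With 3 libraries a group and a median SE of 0.130, a change of single members of the size of their median was not detectable.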
